A study of Homo sapiens with 8 samples.

Results

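WNT ligands are secreted lipid-modified glycoproteins that bind Frizzled receptors, with LRP5 or LRP6 in the branch that stabilizes beta-catenin and with ROR or RYK in branches that do not use it. Secreted inhibitors act outside the cell: SFRP proteins bind the ligands themselves, and DKK1 and DKK2 bind the LRP coreceptors. In fibroblasts these genes are known for signals to neighbouring epithelium, and several are part of the altered secretion of senescent cells. The set described here consisted of 10 genes, taken as a list of symbols with earlier results of these data known: the ligands WNT2, WNT2B, WNT5A and WNT5B, the inhibitors DKK1, DKK2, DKK3, SFRP1 and SFRP4, and AXIN2, an intracellular scaffold that is transcribed in response to beta-catenin and damps it. They were 10 of the 27945 genes counted, and 7 of them were among the 12844 genes that passed a filter on low counts.

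The method was fastGRO-seq, a nuclear run-on in which engaged polymerases add a labeled nucleotide to their transcripts before the labeled RNA is captured and sequenced. The cells were IMR90, human diploid fibroblasts from embryonic lung, and senescence was driven by an inducible fusion of the estrogen receptor with H-RASG12V (ER:RAS), an active form of the RAS oncoprotein. The 4 groups held 2 libraries each. Control cells were labeled WT, and their labels name no shRNA and do not say whether they carry ER:RAS. The 3 senescent groups were induced with 4-hydroxytamoxifen, for which the study's methods give 100 nM in ER:RAS cells, and carried a control shRNA (shControl), an shRNA against METTL3 (shMETTL3) or an shRNA against METTL14 (shMETTL14). METTL3 and METTL14 are subunits of the methyltransferase complex that deposits N6-methyladenosine on RNA. In comparisons with control cells, senescence cannot be told apart from any such difference in ER:RAS or shRNA. The day of harvest for fastGRO-seq is not given in the sources used here. The senescent cells came from a single inducible system.

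Library totals ranged from 14897360 to 20306299 counts, of which 86.2 to 92.5% lay in 21 rows of ribosomal RNA genes, leaving 1513930 to 2048475 counts on other genes. Nascent METTL3 RNA went from 77 and 47 counts in shControl libraries to 16 and 19 in shMETTL3 libraries, 4.11-fold lower (log2 fold change -2.04, SE 0.31, adjusted p = 1.8e-05 by edgeR's quasi-likelihood test). METTL14 was 1.81-fold lower with shMETTL14, from 24 and 28 to 18 and 14 counts, and this change (-0.86, SE 0.34, adjusted p = 0.076, edgeR) did not pass the threshold of 0.05. METTL14 was already lower in shControl than in control cells (-0.76, SE 0.28, adjusted p = 0.047, edgeR). With shMETTL14 it was lower than with shMETTL3 (-1.41, SE 0.32, adjusted p = 0.0010, edgeR). These are run-on counts, whereas the paper examined the knockdowns at the protein level by western blot. All 10 fibroblast markers examined were detected, with at least 11 counts each in every library. Markers of epithelial, endothelial and immune cells were examined as lists of 5. Of the epithelial list, EPCAM and CDH1 had at most 2 counts in any library and CLDN4 at most 13, and CLDN4 was called higher in senescent shControl than in control cells (log2 fold change 2.68, adjusted p = 0.049, edgeR). The summed epithelial level was at most 0.054 RPKM in control cells, 0.191 to 0.204 with shControl, 0.032 to 0.087 with shMETTL3 and 0.330 to 0.397 with shMETTL14. Of the endothelial list, CDH5 had at most 2 counts, TEK 123 and ROBO4 42, with ROBO4 called higher (2.52) and TEK lower (-1.04) in senescence. The summed endothelial level was 0.056 to 0.065 RPKM in control cells, 0.080 to 0.081 with shControl, 0.179 to 0.193 with shMETTL3 and 0.050 to 0.066 with shMETTL14. Of the immune list, PTPRC had at most 4 counts and CD68, a marker of macrophages and lysosomes, up to 60, and CD68 rose in senescence by 2.05 (adjusted p = 2.6e-05, edgeR). The summed level of the fibroblast markers, in RPKM (reads per kilobase, scaled to TMM library size), was 62.1 to 66.6 in control cells, 40.9 to 44.6 with shControl, 34.9 to 42.4 with shMETTL3 and 34.8 to 35.7 with shMETTL14. In edgeR's test 7 of these 10 markers were lower and 1 higher in senescent shControl than in control cells, beside 13.3% of all genes in each direction, and 8 were lower with shMETTL14 than with shControl, beside 12% of all genes. The summed level of 4 smooth muscle markers was 0.525 to 0.565 RPKM in control cells, 0.156 to 0.236 with shControl, 0.048 to 0.070 with shMETTL3 and 0.080 to 0.118 with shMETTL14. Against shControl, LMOD1 was called lower with shMETTL3 (log2 fold change -3.06) and shMETTL14 (-3.40), and so was ACTG2 (-2.01 and -0.73). The summed immune level was 0.299 to 0.32 RPKM in control cells, 1.07 to 1.51 with shControl, 0.525 to 0.918 with shMETTL3 and 0.944 to 1.04 with shMETTL14, with CD3E at 0 throughout. The part of these shifts in the results on the WNT genes was not tested, and in bulk libraries fewer cells of a kind and less RNA per cell cannot be told apart.

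Reads were counted over whole gene bodies on hg19. WNT5A (NM_003392) was counted over chr3:55499743-55521670 on the minus strand, WNT5B (NM_030775) over chr12:1726222-1756377 on the plus strand and WNT2B (NM_004185) over chr1:113009163-113063910 on the plus strand. DKK1 (NM_012242) was counted over chr10:54073943-54077417 on the plus strand, DKK2 (NM_014421) over chr4:107842959-107957453 on the minus strand and DKK3 (NM_001330220) over chr11:11984543-12030917 on the minus strand. SFRP1 was counted as NM_003012. The remaining genes were WNT2 (NR_024047, chr7:116916686-116963343), SFRP4 (NM_003014, chr7:37945535-37956525) and AXIN2 (NM_004655, chr17:63524683-63557740), all on the minus strand. By GENCODE exons, intronic sequence made up 39.5% of the counted span of DKK1, 70.1% of that of WNT5A and 96.5% of that of DKK2, with the other 7 genes between 72.5 and 93.6%. In 74 pairs of an antisense host gene and a gene of 100 or more counts nested in it, the nested gene never exceeded its host in any library, so reads of overlapping transcripts on either strand are counted together. Of the annotated neighbours, CFTR models covered 77.5% of the WNT2 span, a lncRNA (ENSG00000286147) 14.7% of DKK2, and PRKG1-AS1 9.35% of DKK1, each on the opposite strand. AXIN2 shared 71.2% of its span with the same-strand model ENSG00000266076 and SFRP4 its whole span with an opposite-strand model. WNT5A, WNT5B and DKK3 had no overlapping GENCODE gene.

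WNT5A and WNT5B each have 2 RefSeq start sites, and so does WNT2B, while gene body counts add up the output of both. Start site sequences were taken from RefSeq on GRCh38.p14, which held WNT2, WNT2B, WNT5A, WNT5B, DKK1 and SFRP4, and were placed on hg19 by their single exact match. Sequences for DKK2, DKK3, SFRP1 and AXIN2 were not used here. The sequences shown are the 250 bases before 1 start site of each ligand that the comparisons turn on, 5′ to 3′ on the strand of the gene and without any GENCODE exon. The WNT5A window (chr3:55515427-55515676, minus strand of hg19) lies before its inner start site, 6244 bases into the counted span. The WNT5B window (chr12:1738147-1738396, plus strand) lies before its inner start site, 12175 bases into the counted span, and the WNT2B window (chr1:113008913-113009162, plus strand) ends at the counted start. Capitals mark the match to TATAAA, read on the opposite strand.
WNT5A: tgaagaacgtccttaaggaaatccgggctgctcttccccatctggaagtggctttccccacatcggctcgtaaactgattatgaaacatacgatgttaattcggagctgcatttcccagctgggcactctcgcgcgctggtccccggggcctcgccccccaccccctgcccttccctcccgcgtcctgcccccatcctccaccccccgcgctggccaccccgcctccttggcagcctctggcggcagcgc
WNT5B: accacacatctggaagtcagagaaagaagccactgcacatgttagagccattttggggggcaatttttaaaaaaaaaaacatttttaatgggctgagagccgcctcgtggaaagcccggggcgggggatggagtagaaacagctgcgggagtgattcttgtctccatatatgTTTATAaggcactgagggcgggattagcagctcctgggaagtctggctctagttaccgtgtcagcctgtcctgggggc
WNT2B: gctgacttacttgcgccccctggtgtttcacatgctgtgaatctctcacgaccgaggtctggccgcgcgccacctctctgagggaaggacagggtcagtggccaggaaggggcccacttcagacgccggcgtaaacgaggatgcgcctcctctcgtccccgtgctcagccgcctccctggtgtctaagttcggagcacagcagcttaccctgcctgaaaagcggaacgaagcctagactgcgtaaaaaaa
The windows searched ran from 250 bases before to 50 after each start site, on both strands, for 4 short motifs. These were a TATA box with the letters TATAAA, an AP-1 site with the letters TGANTCA, a TCF/LEF site with the letters CTTTGAT, and the core of an NF-kappaB site with the letters GGGNNTTTC. The matches found did not overlap one another. Only TATAAA was found among the 9 start sites of the 6 genes, at position -30 of DKK1 and at position -78 of the inner WNT5B start site, counted from the start site. Over all 35116 promoter windows 11.5% held the TATA box, 7.71% the AP-1 site, 2.62% the TCF/LEF site and 4.78% the NF-kappaB core.

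**Figure D1:**
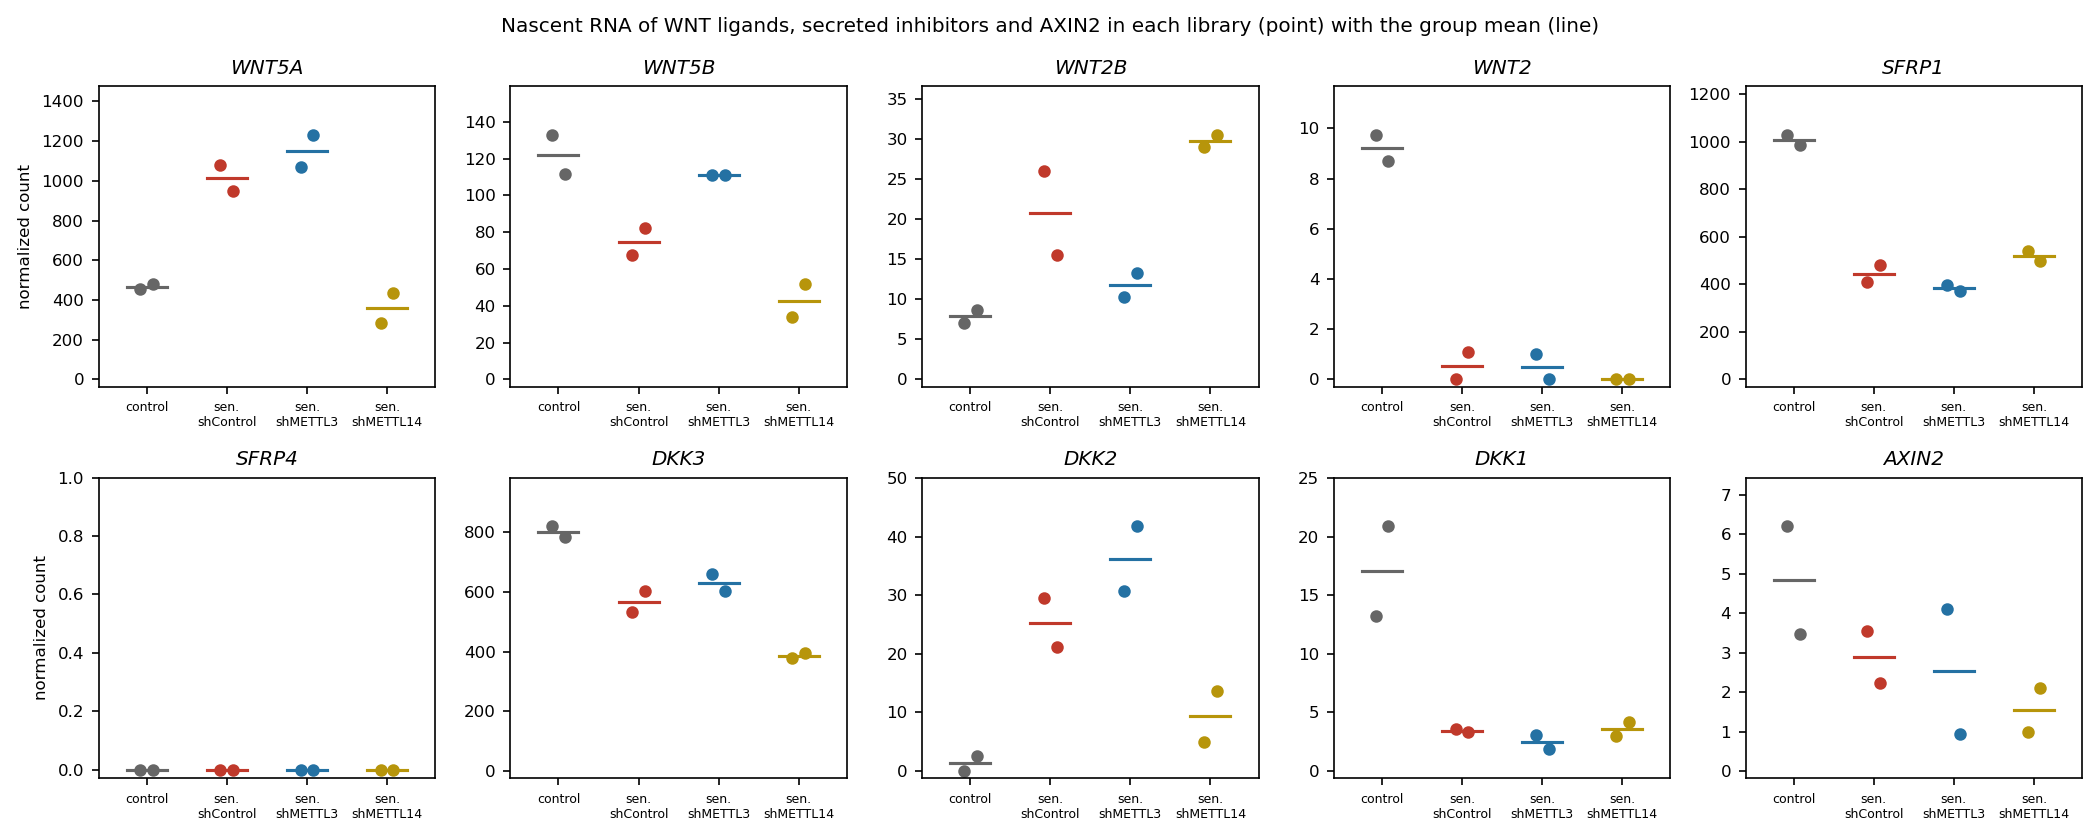
Normalized counts (counts scaled by TMM to the mean effective library size, linear axes) of each gene in the 8 libraries, as points, with the mean of the 2 libraries of a group as a line. WNT5A stands above control in the shControl and shMETTL3 libraries and lies at 285 and 435 with shMETTL14, SFRP1 and DKK1 are lower in all 6 senescent libraries than in both control libraries, and SFRP4 is at 0 throughout.

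WNT5A was the ligand with the highest nascent level. Per length, it reached 1.19 ± 0.051 RPKM (SD, n = 2) in control cells, against 0.226 for WNT5B, and it made up 81.3 to 94.8% of the summed RPKM of the 4 ligands over the 8 libraries. WNT2B and WNT2 lay at or below 0.031 RPKM in every library. Among the inhibitors SFRP1 had 1.18 RPKM and DKK3 0.966 RPKM in control cells, DKK1 had 0.274 RPKM, and DKK2 had 0.001 RPKM. The summed level of the 4 ligands was 1.42 and 1.45 RPKM in the control libraries and 2.90 and 2.58 RPKM with shControl. That of the 5 inhibitors was 2.41 and 2.44 RPKM in control and 1.19 and 1.35 RPKM with shControl. With shMETTL3 the ligands summed to 2.94 and 3.35 RPKM and the inhibitors to 1.32 and 1.21. With shMETTL14 the ligands summed to 0.817 and 1.23 RPKM and the inhibitors to 1.14 and 1.14. WNT5A dominates the first sum, and SFRP1 with DKK3 the second.

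In senescent shControl against control cells, WNT5A, WNT2B and DKK2 rose, and WNT5B, DKK1, DKK3 and SFRP1 fell, which are the 7 genes tested. DKK1 reached the minimum of 10 counts in the control libraries only and DKK2 in senescent libraries only. WNT2B, with 8 and 10 counts in control, reached it in both libraries of each senescent group but not of control. These genes were thus admitted to the test by the groups in which they were high. The 7 are therefore no sample to set against all genes. Over all 12844 genes tested, 13.3% were higher and 13.3% lower in this comparison. The median log2 fold change was -0.50 over the 7 genes and -0.03 over all genes tested. Medians of the 7 genes, here and in the other comparisons, stand beside those of all genes only as description. Calls here and throughout use edgeR's quasi-likelihood test with Benjamini-Hochberg adjustment over all genes tested, and with 2 libraries a group the p-values measure only the spread between these libraries. Each fold change compares a gene with the remainder of its library.

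WNT5A, a ligand best known for beta-catenin-independent signaling, had 453 and 482 normalized counts in control and 1081 and 948 in shControl libraries. The rise was 2.17-fold (log2 fold change 1.12, SE 0.16, adjusted p = 3.5e-06, edgeR). Its close relative WNT5B had 133 and 111 normalized counts in control and 67.4 and 82.4 with shControl, a 1.63-fold fall (-0.70, SE 0.20, adjusted p = 0.010, edgeR). The paralogs thus moved in opposite directions. WNT2B, a ligand of the beta-catenin branch, had 7.08 and 8.71 normalized counts in control and 26.0 and 15.6 with shControl (log2 fold change 1.37, SE 0.46, adjusted p = 0.027, edgeR). With 8 and 10 counts in control, WNT2B passed the filter through senescent libraries alone, which ties the direction of its call to its admission. WNT2, a ligand of lung mesenchyme, had 11 and 10 counts in control and 0 and 1 with shControl. It was 16.1-fold lower by counts (95% counting interval 2.59 to 665), but did not pass the filter and was not tested.

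SFRP1, a secreted Frizzled-related protein that binds WNTs, was the most abundant inhibitor in control cells with 1028 and 987 normalized counts, against 409 and 481 with shControl. The fall was 2.26-fold (log2 fold change -1.18, SE 0.14, adjusted p = 1.2e-07, edgeR). DKK3, a divergent member of the Dickkopf family, had 820 and 785 normalized counts in control and 532 and 603 with shControl, a smaller 1.41-fold fall (-0.50, SE 0.13, adjusted p = 0.0054, edgeR). DKK1, which blocks LRP5 and LRP6 and is itself a beta-catenin target, had 15 and 24 counts in control and 3 and 3 with shControl. The fitted fall was 4.83-fold (-2.27, SE 0.63, adjusted p = 0.0078, edgeR) and rests on 39 counts in control and 6 in shControl libraries. DKK1 passed the filter through the control libraries alone, which ties the direction of its call to its admission, and the call was also made with no filter on low counts. DKK2, which also binds LRP6, went the other way, with 0 and 3 counts in control and 25 and 19 with shControl. The ratio of its counts was 19.2 (95% counting interval 6.14 to 96.4), with an adjusted p of 4.8e-05 (edgeR), and the fitted log2 change of 4.14 depends on how the near-zero control counts are treated, running from 3.22 to 7.64 with each library left out. SFRP4 had no count in any of the 8 libraries. AXIN2 had 7 and 4 counts in control and 3 and 2 with shControl, and its ratio of 1.68 in favour of control had a counting interval from 0.54 to 6.19. Each of the calls on WNT2B, WNT5B, DKK1 and DKK3 was lost when certain libraries were left out. DESeq2 also ended those on WNT2B (adjusted p = 0.11), WNT5B (0.078) and DKK1 (0.083), and library size alone that on WNT2B (0.13). Without shControl replicate 1 the adjusted p was 0.32 for WNT2B, 0.17 for WNT5B, 0.10 for DKK1 and 0.15 for DKK3, without control replicate 1 it was 0.15 for WNT2B, 0.13 for WNT5B and 0.074 for DKK3, without control replicate 2 it was 0.082 for WNT2B and 0.16 for DKK1, and without shControl replicate 2 it was 0.099 for DKK1. The calls on WNT5A, SFRP1 and DKK2 held in every alternative in which they were tested, including each library left out.

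**Figure D2:**
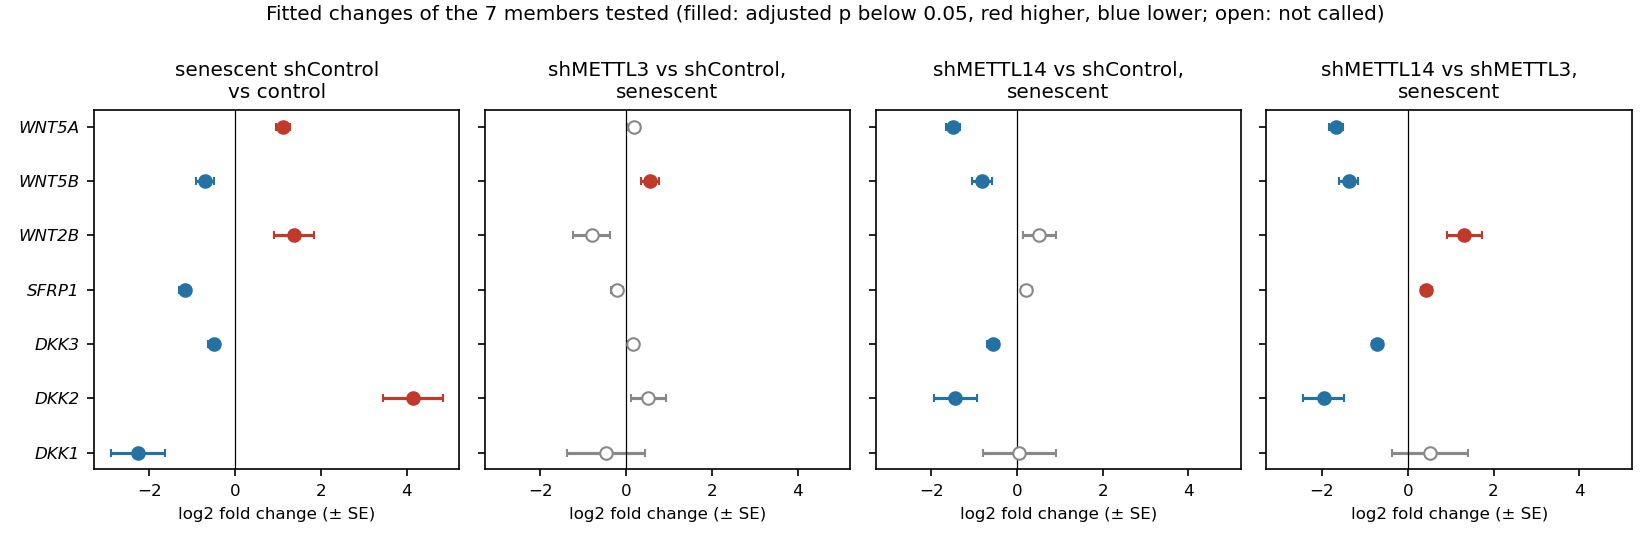
Fitted log2 fold change (points) with its standard error (bars) of the 7 genes tested, in 4 comparisons, where filled points passed an adjusted p of 0.05 in edgeR's test and open points did not. WNT5A moves from 1.12 in senescence to -1.50 with shMETTL14 against shControl, with 0.18 for shMETTL3.

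With METTL3 knockdown in senescent cells, WNT5B was higher than with shControl and no other WNT gene of the set passed the test. Of the 7 genes tested 1 was called higher and 0 lower, where 12.2% of all genes tested were higher and 11.2% lower, and the median change was 0.15 against -0.03 over all genes. The gene called was WNT5B, with 111 and 111 normalized counts against 67.4 and 82.4, a 1.48-fold rise (log2 fold change 0.56, SE 0.21, adjusted p = 0.049, edgeR). That call was lost in 13 of 16 refits, which leave aside the stricter thresholds, and at both stricter thresholds, with adjusted p-values up to 0.32 without shControl replicate 1. WNT5A had 1069 and 1231 normalized counts, overlapping the shControl range, with a change of 0.18 (SE 0.15, adjusted p = 0.43, edgeR). SFRP1 had 397 and 370 (log2 fold change -0.21, SE 0.14, adjusted p = 0.29, edgeR) and DKK3 660 and 603 (0.15, SE 0.13, adjusted p = 0.45). SFRP1 and DKK1 took the opposite sign, 0.40 and 0.13, when library size alone set the scale, and on that scale WNT5A (0.81, adjusted p = 4.1e-05, edgeR), DKK3 (0.76, adjusted p = 0.00013) and DKK2 (1.15, adjusted p = 0.011) were called higher. DKK2 had 30 and 44 counts (0.52, SE 0.40, adjusted p = 0.38, edgeR), DKK1 had 3 and 2, and WNT2B had 10 and 14 with normalized counts of 10.3 and 13.3, both under the shControl libraries (-0.80, SE 0.44, adjusted p = 0.20). WNT2 had 1 and 0 counts and AXIN2 4 and 1.

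With METTL14 knockdown, 4 of the 7 genes fell relative to shControl and 0 rose, where 12% of all genes tested were lower and 9.15% higher. DKK2, among the 4, was admitted to the test by groups in which it was high. The median change over the 7 was -0.55, against 0.00 over all genes tested. WNT5A showed the lowest p, with 285 and 435 normalized counts against 1081 and 948 in the shControl libraries. The fall was 2.82-fold (log2 fold change -1.50, SE 0.16, adjusted p = 1.1e-07, edgeR), and the change ranged from -1.83 to -1.15 over the alternatives. WNT5B had 34.0 and 51.6 normalized counts, a 1.76-fold fall (-0.81, SE 0.24, adjusted p = 0.016, edgeR). WNT5B was thus lower with shControl than in control cells and lower again with shMETTL14. WNT2B had 29 and 29 counts and was 0.52 higher on the log2 scale (SE 0.38, adjusted p = 0.37, edgeR).

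Among the inhibitors, DKK3 fell to 379 and 395 normalized counts, 1.47-fold under shControl (log2 fold change -0.55, SE 0.14, adjusted p = 0.0043, edgeR). DKK2 had 5 and 13 counts against 25 and 19, a 2.71-fold fall (-1.44, SE 0.50, adjusted p = 0.041, edgeR). SFRP1 had 540 and 499 normalized counts, above both shControl libraries but not called (0.22, SE 0.14, adjusted p = 0.27, edgeR), whereas with library size alone it was called higher (0.57, adjusted p = 0.0080). DKK1 had 3 and 4 counts (0.06, SE 0.85, adjusted p = 0.97), a depth at which no moderate change was detectable, and its sign turned to -0.19 without shMETTL14 replicate 2. WNT2 had 0 and 0 counts and AXIN2 1 and 2. The fall of DKK2 was -0.90 (adjusted p = 0.40) without shMETTL14 replicate 1 and that of WNT5B -0.56 (adjusted p = 0.25). Without shControl replicate 2 the adjusted p was 0.19 for WNT5B, 0.11 for DKK3 and 0.082 for DKK2, without shControl replicate 1 it was 0.27 for DKK2, and with library size alone it was 0.38 for DKK3, 0.18 for WNT5B and 0.074 for DKK2. DESeq2 gave 0.071 for WNT5B and 0.13 for DKK2.

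The knockdowns were then compared directly, since the preceding comparisons share the shControl libraries. Of the 7 genes, 2 were higher and 4 lower with shMETTL14 than with shMETTL3, where 16.5% of all genes tested were higher and 18.7% lower. WNT5A was 3.20-fold lower with shMETTL14 (log2 fold change -1.68, SE 0.16, adjusted p = 1.4e-08, edgeR), WNT5B 2.60-fold lower (-1.38, SE 0.22, adjusted p = 2.4e-05), DKK2 3.89-fold lower (-1.96, SE 0.47, adjusted p = 0.0018) and DKK3 1.63-fold lower (-0.71, SE 0.14, adjusted p = 0.00019). The admission of DKK2 through shControl and shMETTL3 libraries bears on its call in this comparison too. WNT2B was 2.50-fold higher (1.32, SE 0.41, adjusted p = 0.013, edgeR) and SFRP1 1.35-fold higher (0.44, SE 0.14, adjusted p = 0.015). None of these 6 genes overlapped between the knockdowns, as was the case for 66.3% of all genes tested, whereas DKK1 did (0.52, SE 0.88, adjusted p = 0.68, edgeR). Without shMETTL14 replicate 1 the adjusted p was 0.079 for WNT2B, 0.12 for SFRP1 and 0.073 for DKK2, without shMETTL14 replicate 2 it was 0.072 for WNT2B, and without shMETTL3 replicate 2 it was 0.051 for SFRP1. With library size alone SFRP1 was 0.18 higher (adjusted p = 0.45), and DESeq2 gave WNT2B an adjusted p of 0.084.

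Against control cells, which the senescence comparison also uses, shMETTL3 cells had 2 genes higher and 3 lower, with 20.1% of all genes tested higher and 20.1% lower. WNT5A was 2.46-fold higher (log2 fold change 1.30, SE 0.16, adjusted p = 1.7e-07, edgeR), and SFRP1 2.63-fold lower (-1.39, SE 0.14, adjusted p = 3.4e-09). DKK2 was higher by a count ratio of 27.7 (95% counting interval 9.12 to 137), DKK1 was lower (-2.73, SE 0.65, adjusted p = 0.0013, edgeR, and 0.053 without control replicate 2), and DKK3 was lower (-0.35, SE 0.13, adjusted p = 0.035), a call lost in 11 of 16 refits. WNT5B (-0.14, SE 0.19, adjusted p = 0.59, edgeR) and WNT2B (0.57, SE 0.50, adjusted p = 0.38) were not called. In shMETTL14 cells 2 genes were higher and 4 lower than in control cells, where 19.7% of all genes tested were higher and 20.5% lower. WNT2B was 3.72-fold higher (1.90, SE 0.43, adjusted p = 0.00080, edgeR) and DKK2 higher by a count ratio of 7.01 (95% counting interval 2.05 to 37.1). The admission of WNT2B, DKK1 and DKK2 to the test, described above, bears on their calls against control cells here too. WNT5B was 2.86-fold lower (-1.52, SE 0.22, adjusted p = 2.8e-06, edgeR), DKK3 2.07-fold lower (-1.05, SE 0.14, adjusted p = 4.3e-07), SFRP1 1.94-fold lower (-0.96, SE 0.13, adjusted p = 1.7e-06) and DKK1 4.64-fold lower (-2.21, SE 0.61, adjusted p = 0.0047). DKK2 lost its call without control replicate 1 (adjusted p = 0.13) and without shMETTL14 replicate 2 (adjusted p = 0.22), and DKK1 without control replicate 2 (adjusted p = 0.12), without shMETTL14 replicate 1 (adjusted p = 0.10) and with DESeq2 (adjusted p = 0.055). WNT2 was at least 5.99-fold lower than in control cells, with 3 counts as the limit for its 0 counts over both shMETTL14 libraries. WNT5A was 1.30-fold under control (-0.38, SE 0.16, adjusted p = 0.066, edgeR), a difference that was not called here but was in 7 of 16 refits. Its value ran from -0.09 without shMETTL14 replicate 1 to -0.70 without replicate 2.

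Ordered by group, WNT5A ran from shMETTL3 (1150 ± 115 normalized counts, SD, n = 2) and shControl (1014 ± 93.6) to control (467 ± 19.9) and shMETTL14 (360 ± 106), with a call only at the step from shControl to control. WNT5B ran from control (122 ± 15.1) and shMETTL3 (111 ± 0.196), not called apart, through shControl (74.9 ± 10.6) to shMETTL14 (42.8 ± 12.5), with both later steps called. DKK3 was highest in control (803 ± 24.4), followed by shMETTL3 (631 ± 40.2) and shControl (568 ± 50.4), not called apart, and lowest in shMETTL14 (387 ± 11.4). SFRP1 was highest in control (1007 ± 29.4), and its senescent levels of 519 ± 28.7 with shMETTL14, 445 ± 50.7 with shControl and 384 ± 18.9 with shMETTL3 were not called apart between neighbours in this order. DKK2 ran from shMETTL3 (36.3 ± 7.78) and shControl (25.4 ± 5.95), not called apart, through shMETTL14 (9.34 ± 6.15) to control (1.31 ± 1.85). DKK1 had 17.1 ± 5.39 in control and 2.49 to 3.61 in the senescent groups, none of which were called apart. WNT2B had no called step between neighbours, from 29.8 ± 1.10 with shMETTL14 through 20.8 ± 7.37 with shControl and 11.8 ± 2.14 with shMETTL3 to 7.90 ± 1.15 in control.

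Over the 8 libraries, which all these values share, the log2 levels of WNT5B and DKK3 had a Pearson correlation of 0.943, and those of DKK1 and SFRP1 had 0.945. DKK2 ran against SFRP1 (-0.948) and WNT2B against DKK3 (-0.953), while WNT5A and WNT5B had 0.493. Among the 3883 or 3882 other genes averaging 100 counts or more, those whose log2 level was most like WNT5A were SMURF2 (Pearson correlation 0.993) and CPD (0.990), those most like WNT5B were DISC1 (0.996) and NAV1 (0.991), and those most like WNT2B were RPRD2 (0.968) and SON (0.964). CRTAP (0.993) and GSN (0.991) were nearest to DKK3, LIFR (0.991) and GAB2 (0.990) to SFRP1, ZNF207 (0.993) and CLEC2D (0.986) to DKK2, and ZNRF1 (0.974) and SOCS5 (0.969) to DKK1. Picked as the highest of so many values over only 8 libraries, these correlations are high in part by selection. Shared regulation was not tested.

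The rest of the WNT pathway was followed over 82 further genes, of which 43 passed the low-count filter. Some passed it through the groups in which they were high, so the 43 are no sample to set against all genes. For example, WNT7B and FZD8, both called higher in senescence, were below 10 counts in both control libraries. In senescent shControl against control cells 7 of the 43 (16.3%) were higher and 10 (23.3%) lower, beside the 13.3% of all genes in each direction, with a median of -0.21. With shMETTL3 against shControl 7 were higher and 7 lower (16.3% each), beside 12.2% and 11.2% of all genes, with a median of -0.15. With shMETTL14 against shControl 6 were higher (14%) and 12 lower (27.9%), beside 9.15% and 12% of all genes, with a median of -0.19. In the direct comparison of the knockdowns 8 were higher (18.6%) and 11 lower (25.6%) with shMETTL14, beside 16.5% and 18.7% of all genes. None of 10 further secreted inhibitors, such as SFRP2, FRZB and WIF1, passed the filter, and 5 of them had no count in any library.

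Of 15 other WNT ligands 4 were tested. WNT7B rose in senescence from 3 and 5 to 37 and 37 counts (log2 fold change 3.55, SE 0.45, adjusted p = 6.7e-07, edgeR), and WNT16 fell with shMETTL14 from 28 and 49 to 2 and 5 counts (-3.57, SE 0.53, adjusted p = 1.6e-05). WNT7B passed the filter through senescent libraries alone, which ties the direction of its rise to its admission. WLS, the carrier that takes WNT ligands to the cell surface, had 832 and 777 counts in control, 4064 and 3791 in shControl libraries, 4775 and 5003 in shMETTL3 libraries, and 907 and 1551 in shMETTL14 libraries. It rose by 2.67 (SE 0.19, adjusted p = 1.2e-11, edgeR) in senescence and fell by 1.83 (SE 0.18, adjusted p = 2.5e-08) with shMETTL14, in the same directions as WNT5A. However, GNG12-AS1 on the opposite strand covers 78.0% of the WLS span, so that the counts of the pair cannot be told apart.

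Of 23 receptors and coreceptors 14 were tested, of which 1 was higher and 6 lower in senescence, beside 13.3% of all genes in each direction. ROR2, a receptor for WNT5A, fell from 178 and 185 counts in control to 18 and 31 with shControl (log2 fold change -2.50, SE 0.24, adjusted p = 6.3e-09, edgeR) and to 5 and 3 with shMETTL14 (-2.74 against shControl, SE 0.46, adjusted p = 7.5e-05). With shMETTL3 it was also lower than with shControl (-1.02, SE 0.35, adjusted p = 0.038, edgeR), a call lost in 8 of 15 refits. Its relative ROR1 fell from 508 and 433 to 81 and 138 counts in senescence (-1.72, SE 0.17, adjusted p = 9.4e-09, edgeR) and was higher than shControl with both shMETTL3 (1.29, SE 0.18, adjusted p = 4.3e-06) and shMETTL14 (1.19, SE 0.18, adjusted p = 1.4e-05). The Frizzled receptor gene FZD8 rose in senescence (2.53, SE 0.36, adjusted p = 3.5e-06, edgeR), and was higher again with shMETTL3 (0.94, adjusted p = 0.0056) and with shMETTL14 (0.99, adjusted p = 0.0040). With 8 and 9 counts in control, FZD8 passed the filter through senescent libraries alone, which ties the direction of its rise in senescence to its admission. FZD2 fell in senescence (-1.95, SE 0.33, adjusted p = 4.6e-05, edgeR) and was lower than shControl with both shMETTL3 (-1.56, SE 0.49, adjusted p = 0.022) and shMETTL14 (-1.85, SE 0.52, adjusted p = 0.011). Its counts were 14 and 22 with shControl and 11 and 3 with shMETTL3, and that change ran from -2.82 to -0.88 with each library left out.

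**Figure D3:**
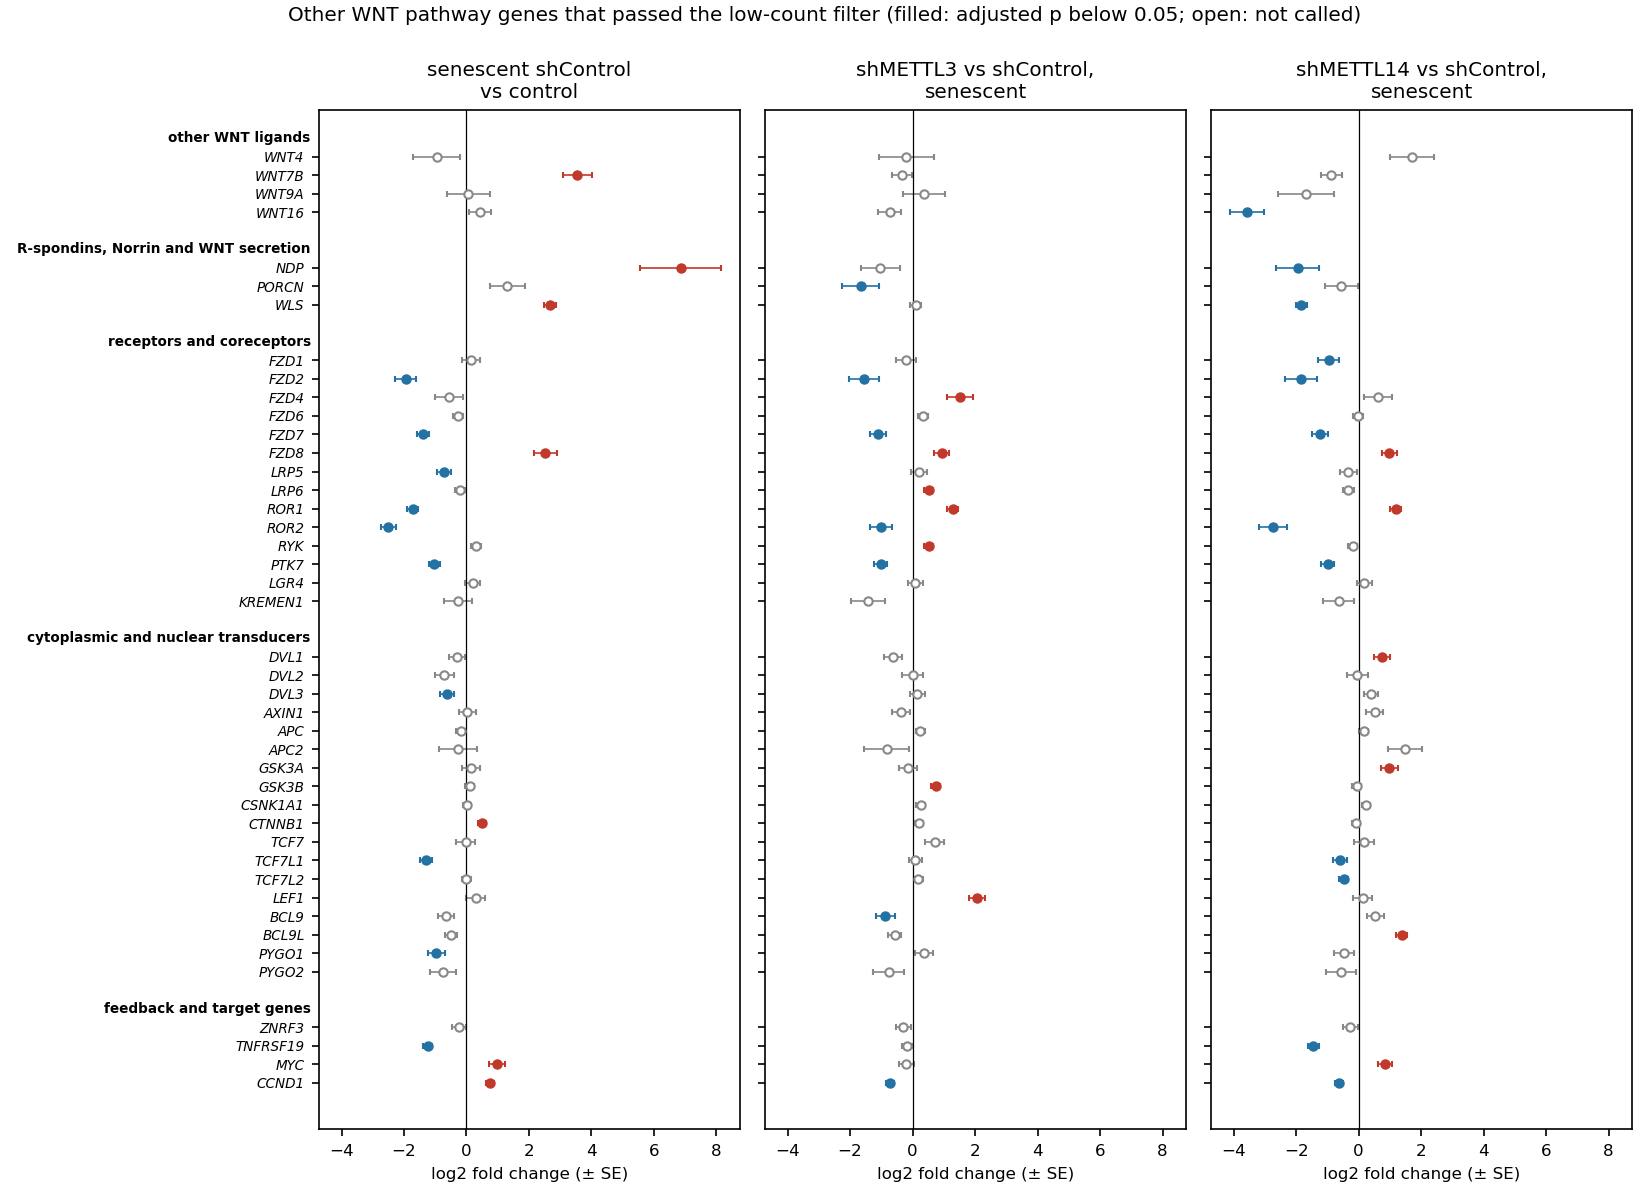
Fitted log2 fold change (points) with its standard error (bars) of the 43 further WNT pathway genes that passed the low-count filter, grouped by role, in senescence and in each knockdown against senescent shControl; filled points passed an adjusted p of 0.05. ROR2 lies at -2.50 in senescence and -2.74 with shMETTL14, and WLS at 2.67 and -1.83.

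All 18 cytoplasmic and nuclear transducers were tested, and most were not called in senescence, with 1 higher and 3 lower, beside the same 13.3% of all genes in each direction. The beta-catenin gene CTNNB1 rose by 0.49 (SE 0.13, adjusted p = 0.0067, edgeR), a value that was -0.0080 with library size alone, and TCF7L1, a repressor of the TCF family, fell by 1.30 (SE 0.18, adjusted p = 3.3e-06). LEF1, a partner of beta-catenin on DNA, rose with shMETTL3 from 29 and 31 to 139 and 153 counts (2.06, SE 0.25, adjusted p = 8.0e-07, edgeR), while the coactivator gene BCL9 fell (-0.87, SE 0.31, adjusted p = 0.040). With shMETTL14 the BCL9 paralog BCL9L rose (1.38, SE 0.18, adjusted p = 2.7e-06, edgeR) and TCF7L1 fell (-0.60, SE 0.22, adjusted p = 0.047), a value that was -0.23 without shControl replicate 2 (adjusted p = 0.65) and -0.26 with library size alone. Of 9 feedback and target genes 4 were tested. MYC rose in senescence (0.99, SE 0.26, adjusted p = 0.0055, edgeR) and again with shMETTL14 (0.83, SE 0.22, adjusted p = 0.0083), and TNFRSF19 fell in both (-1.24, SE 0.15, adjusted p = 1.7e-07 and -1.45, SE 0.17, adjusted p = 6.5e-07). CCND1 rose in senescence (0.75, SE 0.13, adjusted p = 6.8e-05, edgeR) and was lower than shControl with both shMETTL3 (-0.74, SE 0.13, adjusted p = 0.00014) and shMETTL14 (-0.63, SE 0.13, adjusted p = 0.00074), and each of its calls was lost with library size alone, where they came to 0.25, -0.12 and -0.28. Of the other calls, MYC in senescence was lost in 3 of 16 refits, CTNNB1 in 5, MYC with shMETTL14 in 4, BCL9 in 6, TCF7L1 with shMETTL14 in 9, FZD8 in 1 of 15 with shMETTL3 and 2 of 15 with shMETTL14, and FZD2 in 5 of 15 with shMETTL3 and 3 of 15 with shMETTL14.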

How the data were processed

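Nascent RNA was measured in 8 fastGRO-seq libraries, 2 for each of 4 groups. The authors deposited unnormalized read counts per gene, from STAR alignment to hg19 and HOMER counting over whole gene bodies, introns included, and each library was kept apart. The kit was directional, but the counts did not tell strands apart. Counts of the 8 libraries were fitted together with edgeR 4.0.16 in R 4.3.3: TMM scaling, filterByExpr with a minimum count of 10, the quasi-likelihood test and a Benjamini-Hochberg threshold of 0.05 over 12844 genes, with 6 comparisons. The fit was checked on simulated counts. A gene not tested is given as a ratio of counts with a 95% interval, and against 0 counts 3 counts over the group are the limit, both for counting error only. An exact permutation test of 2 against 2 libraries cannot go below p = 0.333, so none was run.

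The genes named are the 10 of the set, METTL3 and METTL14, for each tested gene of the set the 2 most correlated genes (log2 CPM, prior count of 2), and from each pathway list the largest rise and fall among called genes averaging 20 counts or more, in senescence and in each knockdown against shControl, with other called values of some of these genes. WNT genes and lists were chosen with earlier results of these data known. The alternatives were DESeq2 1.42.0, library size alone, upper quartile scaling, removal of ribosomal RNA rows, no filter, at least 10 counts in every library, only the groups compared, the replicate number as a block, a stricter adjusted p (0.01), a minimum absolute log2 change of 1, and each library left out. They were extended to the pathway genes after the data were seen. Counts of refits leave aside the 2 stricter thresholds. Replicates differed by 1.53 to 5.13 times the sampling variance. The spike-in reads were not analysed here, and a shift common to every gene would thus be missed. Exons came from GENCODE 44 on GRCh37.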

Additional observations from a re-analysis of the deposited data

Results flagged for a closer look

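The effects of the METTL3 and METTL14 knockdowns differed for 6 of the 7 genes tested, by edgeR's direct test between the knockdown groups. Of these calls, that on WNT2B was lost in 3 of 15 refits, that on SFRP1 in 3 of 16 and that on DKK2 in 1 of 15. Those on WNT2B and SFRP1 were also lost at an adjusted p below 0.01. On the log2 scale, shMETTL14 minus shMETTL3 was -1.68 for WNT5A, -1.38 for WNT5B, -1.96 for DKK2 and -0.71 for DKK3, and 1.32 for WNT2B and 0.44 for SFRP1. In each of these genes both libraries of one knockdown lay above both libraries of the other, as in 66.3% of all genes tested. Over all genes tested, 16.5% were higher and 18.7% lower in the same comparison.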

How the results depend on the processing

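WNT5A kept its direction and call in senescence, with shMETTL14 against shControl and between the knockdowns in all 16 refits and at both stricter thresholds, and SFRP1 kept its fall in senescence in all of them. DESeq2 gave no adjusted p for 2 pairs of gene and comparison. Where counts of called genes moved by over 1.5 times, the cause was not tested. In senescence, 1 gene in place of 3 was higher with at least 10 counts in every library, a filter that leaves out 3 of the 7, and 2 in place of 4 were lower with DESeq2 and with a minimum log2 change of 1. With each library left out, 1 to 5 genes were lower. With shMETTL3 against shControl, 4 genes in place of 1 were higher with library size alone, and 0 with DESeq2, upper quartile scaling, no filter, at least 10 counts in every library, the replicate block, only the groups compared, an adjusted p below 0.01 or a minimum log2 change of 1, and 0 to 1 with each library left out. With shMETTL14 against shControl, 1 gene (SFRP1) in place of 0 was higher with library size alone, and the 4 lower became 2 with DESeq2, 1 with library size alone, 2 at an adjusted p below 0.01, 2 with a minimum log2 change of 1 and 1 to 4 with each library left out. Between the knockdowns the 2 higher with shMETTL14 became 1 with DESeq2, 1 with library size alone, 1 with at least 10 counts in every library, 1 with a minimum log2 change of 1, 0 at an adjusted p below 0.01 and 0 to 2 with each library left out. Against control, shMETTL3 had 1 higher in place of 2 with at least 10 counts in every library and 1 to 4 lower with each library left out. For shMETTL14 against control the 2 higher became 0 with at least 10 counts in every library, 1 with only the groups compared, 1 at an adjusted p below 0.01 and 1 to 2 with each library left out. Counts over all genes tested also moved in some of these settings, but not in all. With shMETTL3 against shControl, 1573 genes were higher, against 1487 with upper quartile scaling, 1512 with no filter and 1563 with the replicate block. In senescence the genes lower went from 1702 to 908 with DESeq2, 915 with the minimum log2 change and 763 to 2143 with each library left out. With shMETTL3 against shControl those higher went from 1573 to 971 with DESeq2, 964 at the lower adjusted p and 595 with the minimum log2 change. With shMETTL14 against shControl those lower went from 1545 to 951, 945 and 750 in that order and 784 to 1930 with each library left out, and between the knockdowns those higher went from 2118 to 1212, 1328 and 1103. Signs turned for DKK1 (0.13) and SFRP1 (0.40) with shMETTL3 and for CTNNB1 in senescence (-0.0080) with library size alone, and for DKK1 with shMETTL14 against shControl (-0.19 to 0.26 with each library left out, negative without shMETTL14 replicate 2). Library size alone moved the median of all genes tested to -0.53 in senescence, 0.58 with shMETTL3 and 0.35 with shMETTL14 against shControl, and the genes higher and lower to 752 and 5007, 5285 and 353, and 3163 and 710, from 1711 and 1702, 1573 and 1434, and 1175 and 1545. The deviations of same-numbered libraries had correlations from -0.039 to 0.101, so the numbers were not taken as pairs. The replicate block changed 1 call among the 7 genes, that of WNT5B with shMETTL3, which had an adjusted p of 0.0505. The precision for DKK1, DKK2, WNT2, WNT2B and AXIN2 is limited by at most 44 counts in any library.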
